A study of Mus musculus with 3 samples.

Results

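Krüppel-like factors (Klf proteins) and Sp proteins share a DNA-binding domain of C2H2 zinc fingers at their carboxyl end and bind GC-rich and CACCC-type sequences. The Klf genes described here are those of group 3 by domain structure, Klf9, Klf10, Klf11, Klf13, Klf14 and Klf16, together with Klf15, which does not belong to that group. They were chosen by name, and a peak belonged to a gene when the shared-peak list gave it exactly that gene's name. All 7 genes had a peak, beside 55.4% of all protein-coding genes, and together they held 9 of the 19979 peaks in the list.

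The list comes from chromatin immunoprecipitation of the zinc finger factor Sp9 in mouse olfactory bulb. There were 2 immunoprecipitation libraries made with a homemade Sp9 antibody, and 1 input library made without antibody. All came from bulbs of CD1 mice on postnatal days 0 to 2, fixed with 1% formaldehyde for 10 min, and none of the labels names an allele or a treatment. The values available are 1 interval and 1 score for each peak that the authors called shared, so no peak has a replicate error and no test between groups exists. Whether the immunoprecipitations came from separate litters is not stated. The list holds no expression values, so the tissue could not be checked against markers, and whether these genes are transcribed in the bulb was not analysed here.

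Group 3 proteins carry a short helix near the amino end that binds Sin3A, a scaffold that brings histone deacetylases to the bound gene, and they are known mainly as repressors that compete with activating Sp proteins for the same sites. Several are early-response genes: Klf9 is induced in neurons by thyroid hormone and glucocorticoids, and Klf10 and Klf11 were first described as genes induced early by TGF-beta. Klf15 is known as a metabolic regulator of kidney, heart, muscle and liver that follows the circadian clock. Sp9 itself is needed for the development of interneurons that settle in the olfactory bulb.

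The stretches upstream of the annotated gene starts are shown because Sp and Klf proteins are known to bind the GC box, GGGCGG, and the CACCC box, here searched as CCACCC. Sequences of 4 of the 7 genes were matched in the RefSeq promoter table, and those of Klf10, Klf14 and Klf16 were not matched. Each line below gives the 250 bases before the gene start, 5′ to 3′ on the gene's strand, in build GRCm38.p6, which is not the build of the peak list. Capitals mark every match to GGGCGG or CCACCC on either strand, so that CCGCCC and GGGTGG count too.
Klf11, chr12:24651121-24651370, plus strand: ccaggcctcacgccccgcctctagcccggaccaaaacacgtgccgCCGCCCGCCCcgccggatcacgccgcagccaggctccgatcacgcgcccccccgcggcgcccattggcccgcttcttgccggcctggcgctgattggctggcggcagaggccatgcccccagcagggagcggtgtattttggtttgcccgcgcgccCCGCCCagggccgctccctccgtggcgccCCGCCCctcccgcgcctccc
Klf13, chr7:63938916-63939165, minus strand: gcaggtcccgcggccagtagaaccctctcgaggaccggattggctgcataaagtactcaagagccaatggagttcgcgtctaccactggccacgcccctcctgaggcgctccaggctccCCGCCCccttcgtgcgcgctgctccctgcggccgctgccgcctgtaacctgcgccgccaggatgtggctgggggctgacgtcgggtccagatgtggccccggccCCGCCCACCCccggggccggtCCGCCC
Klf15, chr6:90462326-90462575, plus strand: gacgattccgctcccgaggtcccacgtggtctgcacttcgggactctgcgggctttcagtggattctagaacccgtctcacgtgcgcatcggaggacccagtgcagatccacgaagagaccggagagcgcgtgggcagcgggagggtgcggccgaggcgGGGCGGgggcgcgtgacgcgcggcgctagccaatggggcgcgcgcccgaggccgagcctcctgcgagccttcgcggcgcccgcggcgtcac
Klf9, chr19:23140976-23141225, plus strand: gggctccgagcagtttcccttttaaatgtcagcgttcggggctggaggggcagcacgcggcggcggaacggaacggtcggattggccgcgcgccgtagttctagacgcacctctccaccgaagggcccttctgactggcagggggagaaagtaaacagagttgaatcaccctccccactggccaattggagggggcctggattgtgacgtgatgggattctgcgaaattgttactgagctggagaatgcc

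The upstream stretch of Klf11 held 4 matches to the GC box, of which an adjoining pair shares letters. That of Klf13 held 3 GC boxes and 1 CACCC box, and the CACCC box shares letters with a GC box. The last GC box of Klf13 ends at the base just before the annotated start. Klf15 held 1 GC box and no CCACCC, and Klf9 held no match to either searched string. The shorter string CACCC occurs in the Klf9 stretch, and its reverse complement GGGTG in that of Klf15, but neither was counted. Among the 32851 upstream stretches of this length in the table, 32.7% held a GC box, 4.09% held 4 or more, and 28.1% held CCACCC. GC content was 76.8% for Klf11, 72.0% for Klf15, 71.6% for Klf13 and 59.6% for Klf9, against a median of 52.4% over the table. A match is only a string of letters. The peak list is in mm9 and gives no distance to a gene start, so the peaks were not placed on these stretches.

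All 7 genes had a peak in the upper part of the list, although among peaks of similar width those of Klf16, Klf14 and Klf15 scored above only 49.8%, 55.9% and 59.6%. Each had an above-median peak, meaning one that scored at least 210.06, the median of the list, and each also had an upper-quartile peak, with a score of at least 353.56. Over the 21900 protein-coding genes of the gene table, the background for any linked peak was 55.4%, for an above-median peak 35.4% and for an upper-quartile peak 19.2%. The highest peak per gene ran from 467.80 for Klf14 to 1401.20 for Klf13, with a median of 608.79 over the 7 genes, against a median of 273.24 over the 12136 coding genes that had a peak. The 7 genes had 1.29 peaks each, against 0.819 per coding gene, a mean that includes genes without a peak. The 10 other Klf genes had 1.6 peaks each and the 9 Sp genes 1.56. At least 2 peaks were seen at 2 of the 7 genes, Klf9 and Klf10, beside a background of 15.5% of all coding genes. Among the 12136 coding genes with a peak, 3387 had 2 or more. Since all 7 genes had a peak, the contrasts with all coding genes show no excess of peaks per linked gene. These 7 genes were chosen with earlier results of the list known, and their counts are a description without a test. The score is the authors' own, its formula is not stated by any source at hand, and it was used only to rank peaks within the list.

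**Figure D1:**
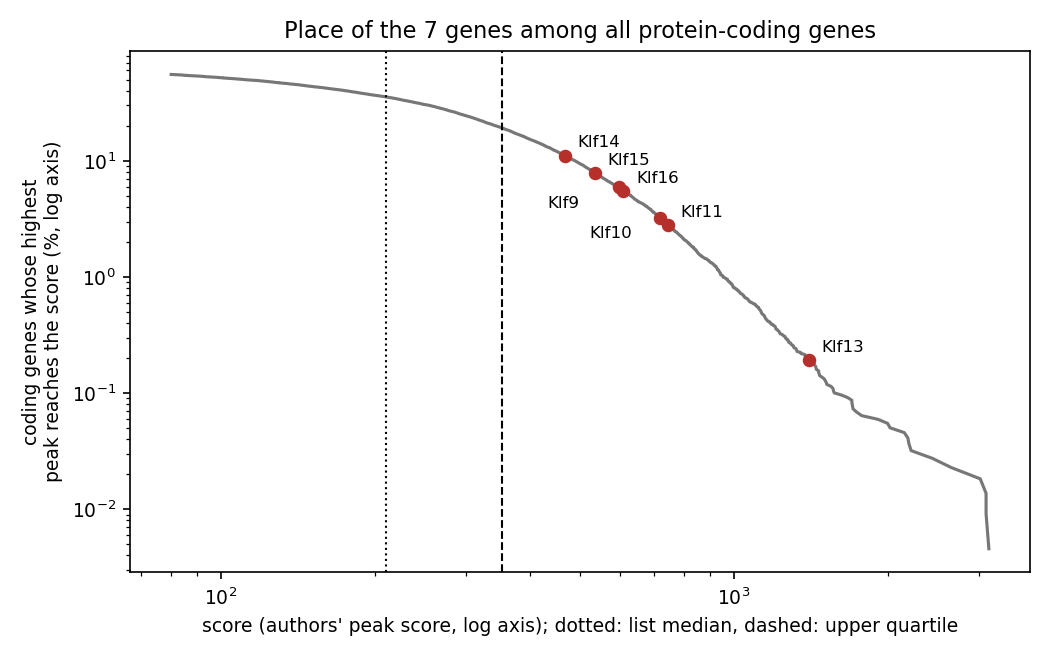
For each score on the horizontal axis (log scale), the grey line gives the percentage of all 21900 protein-coding genes whose highest linked peak reached it (vertical axis, log scale), and the red points place the 7 genes on that line. All 7 lie to the right of the dashed upper quartile at 353.56, with Klf14 nearest to it and Klf13 far to the right at 1401.20.

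Klf13 stood highest of the 7. Klf13, a factor first studied in T cells and red cell precursors and needed in heart development, had 1 peak scoring 1401.20, which the list places at 71081853 to 71084900 of chromosome 7 (mm9). It ranked 71 in the list of 19979 peaks, and 41 coding genes had a higher one. Only 0.192% of all coding genes had a peak that reached this score. The Klf13 peak was also broad, at 3047 bp, wider than 99.5% of the peaks in the list.

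The TGF-beta-inducible pair Klf10 and Klf11 came next. Klf11, a regulator of the insulin gene and of monoamine oxidase genes, had 1 peak scoring 744.64, which the list places at 25335676 to 25337197 of chromosome 12. This score was above 96.4% of all peaks. Klf10, which is known to repress the inhibitory Smad gene Smad7, had 2 peaks on chromosome 15, one at 38230208 to 38231948 that scored 718.75 and one at 38228820 to 38230106 that scored 535.14. Both Klf10 peaks were in the upper quartile, above 95.9% and 89.9% of all peaks. They lay 102 bp apart and spanned 3128 bp together, close to the 3047 bp of the single Klf13 peak. Among the 2158 coding genes with exactly 2 peaks on a chromosome, the median gap was 20.7 kb, and 3.43% had a gap no larger than that of Klf10.

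Klf16 and Klf9 had nearly equal highest scores. Klf16, also known as the dopamine receptor regulating factor, had 1 peak scoring 608.79, which the list places at 80039001 to 80041044 of chromosome 10. This score was above 93.0% of all peaks. Klf9, which takes part in the maturation of neurons, had a peak scoring 595.64, which the list places at 23215127 to 23216751 of chromosome 19. This score was above 92.5% of all peaks. Its second peak, from 23209046 to 23210967, scored 196.08, above 46.9% of all peaks, and was the only 1 of the 9 below the list's median. The Klf9 peaks were 4.16 kb apart, and 23.1% of the coding genes with exactly 2 peaks had a gap no larger than that.

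Klf15 and Klf14, both on chromosome 6, had the lowest of the 7 highest scores. Klf15 had 1 peak at 90412105 to 90413820 that scored 536.03, above 90.0% of all peaks. Klf14, an intronless imprinted gene expressed from the maternal copy and known as a regulator of metabolic genes in fat, had 1 peak at 30907659 to 30909236 that scored 467.80, above 85.8% of all peaks. Even the Klf14 score was reached by only 11.1% of all coding genes. Without an error for single peaks, neighbours in this order, such as Klf16 and Klf9 or Klf11 and Klf10, could not be shown to differ.

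Every one of the 9 peaks was wider than the list's median of 986 bp. Widths ran from 1286 bp for the lower Klf10 peak to 3047 bp for Klf13, with a median of 1715 bp. The peaks of Klf13 and Klf16 (2043 bp) were at least 2000 bp wide, as were 3.63% of all peaks. Wider peaks scored higher across the list (Spearman correlation 0.745 over 19979 peaks, which are not independent), so each peak was also set beside peaks within 10% of its own width. On that scale Klf11 stayed high, above 94.7% of 2122 peaks of similar width, and the lower Klf10 peak was above 89.2% of 3206. The higher Klf10 peak was above 83.2% of 1325 and the higher Klf9 peak above 75.5% of 1746. Klf13 was also above 83.2%, but of only 95 peaks. Klf15 (59.6%), Klf14 (55.9%) and Klf16 (49.8%) scored near the middle for their width. The lower Klf9 peak, 1921 bp wide, scored above 1.54% of the 842 peaks of similar width, so it was broad and low.

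**Figure D2:**
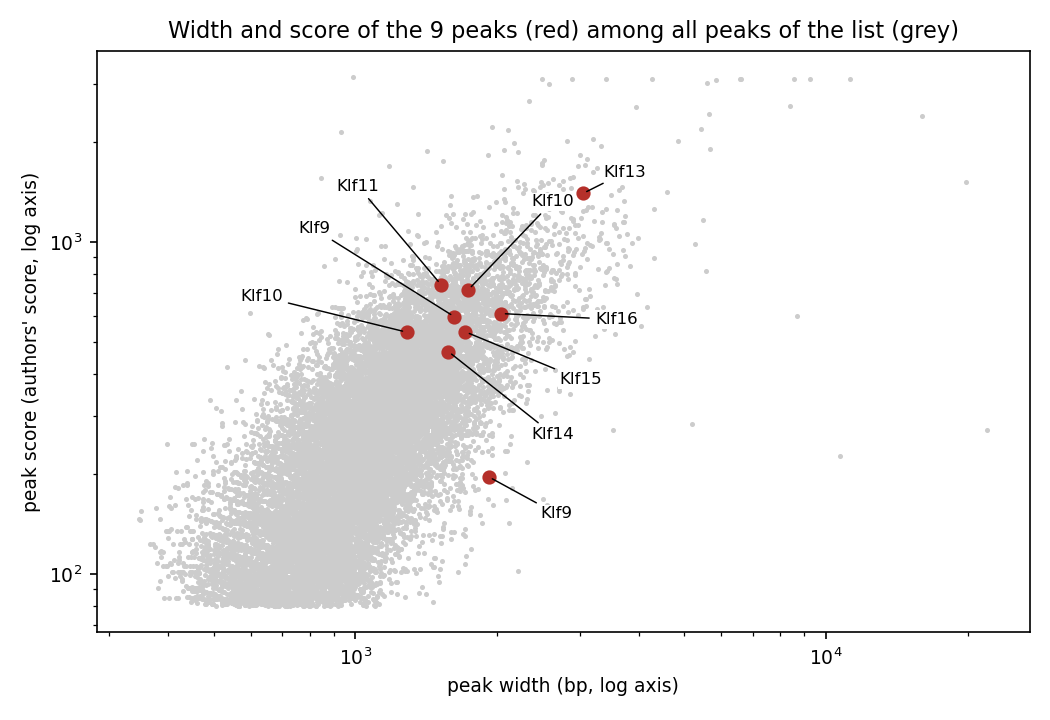
Each grey point is 1 of the 19979 peaks, with its width in bp on the horizontal axis and the authors' score on the vertical axis (both log scales), and the 9 red points are the peaks of the 7 genes. Klf11 and the lower Klf10 peak lie towards the upper edge of the cloud, and the lower Klf9 peak, at 1921 bp and 196.08, lies at its lower edge.

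The peaks of these genes lay in very different surroundings. A peak placed on an assembled chromosome had a median of 2 other peaks within 100 kb, and 19.0% of placed peaks had none. These values count peaks of any name. Each Klf9 and Klf10 peak had 1 other peak within 100 kb, which carried the name of the same gene, so none is among those 19.0%. No peak with another name lay there, and the share of all peaks for which this holds was not computed. The nearest peaks beyond those of Klf9 were named for the DNA repair gene Smc5 at 131 kb and the ion channel gene Trpm3 at 483 kb. On the side of higher coordinates, the nearest peak beyond those of Klf10 was named for the miRNA gene Mir6951 and lay 168 kb away. Klf13 had 1 other peak in its window, named for E030018B13Rik, with a score of 150.58. Klf14 also had 1, named for the coatomer gene Copg2, with a score of 153.26. For Klf9, Klf10, Klf13 and Klf14, the gene's own peak was therefore the highest within 100 kb, and the other names there had no above-median peak.

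Klf11 had 3 other peaks within 100 kb and Klf15 had 2. Those around Klf11 carried the names of the transcription factor gene Grhl1 (552.71), the cilium gene Cys1 (154.52) and Rrm2, a ribonucleotide reductase subunit (705.09), all under the 744.64 of Klf11 itself. Around Klf15 they carried the names of Cfap100, a cilium gene (586.54), and Zxdc, a zinc finger gene (775.57). Both were higher than the 536.03 of Klf15, which was thus the only 1 of the 7 whose highest peak was not the highest within 100 kb.

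Klf16 lay in a crowded stretch. Its window held 22 other peaks with 9 names, and 99.1% of placed peaks had fewer neighbours. They belonged to Onecut3, a homeobox gene (4 peaks), Csnk1g2, a casein kinase gene (4), Rexo1, an exonuclease gene (3), Mknk2, a kinase gene (3), Abhd17a, Atp8b3 and Btbd2 (2 each), Scamp4 and Mir6912 (1 each). Of the 22, 8 were above the list's median and the highest was a Mknk2 peak of 552.39, below the 608.79 of Klf16. The nearest lay 6.85 kb away under the name Rexo1 (230.58) and 8.07 kb away under the name Abhd17a (253.57). A peak carries 1 name only, so which gene a peak in such a stretch acts on cannot be read from the list.

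**Figure D3:**
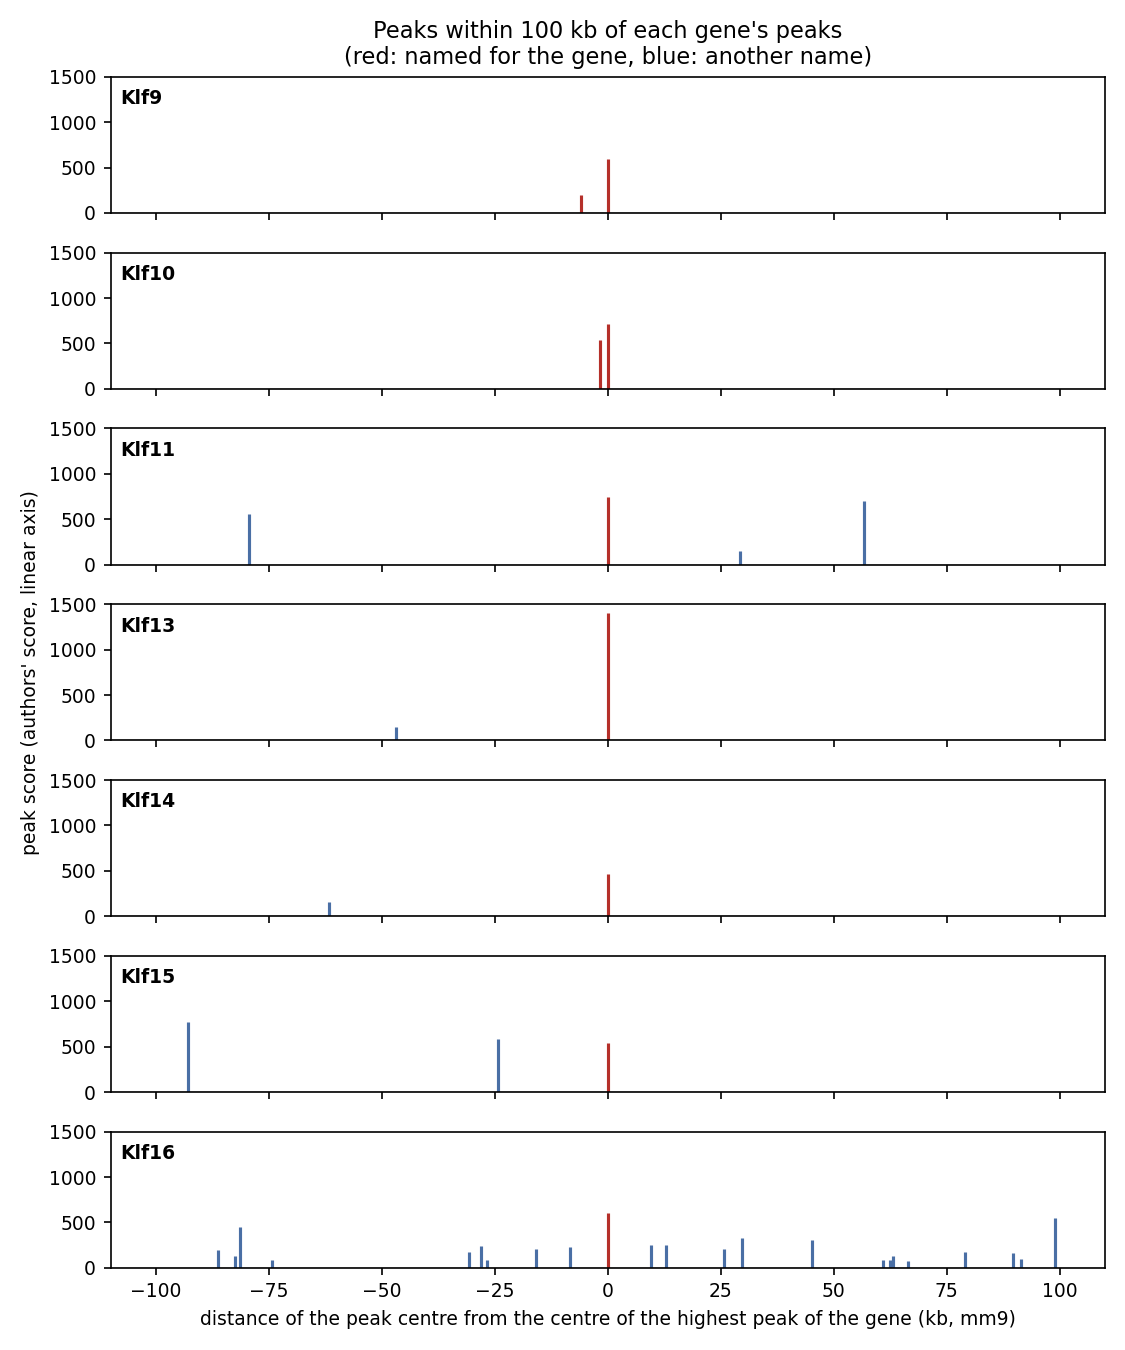
Each panel shows 1 of the 7 genes, with the distance of every peak centre from the centre of the gene's highest peak on the horizontal axis (kb) and the authors' peak score on the vertical axis (linear, from 0). Red lines are peaks named for the gene and blue lines peaks with another name. Klf9 and Klf10 have red lines only, Klf16 has 22 blue neighbours, and only in the Klf15 panel are blue lines higher than the red one.

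The gene table's order gave the nearest coding genes on either side, whose peaks can lie outside the 100 kb windows. Odf1 beside Klf10, Tsga13 beside Klf14 and Aldh1l1 beside Klf15 had no linked peak. Azin1, on the other side of Klf10, had a peak of 642.31, Mkln1 beside Klf14 one of 288.69, and Otud7a beside Klf13 one of 465.79. E030018B13Rik, next after Klf13 in that order, had 3 peaks with a highest score of 775.86, a different peak from the one within 100 kb. The E030018B13Rik peak within 100 kb lay at lower coordinates than the Klf13 peak, so the order does not give the side of the peaks. Of the 14 flanking genes, 11 had at least 1 linked peak, beside 55.4% of all coding genes.

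The remaining Klf genes and the Sp genes were set beside these 7 for scale. Of the 10 other Klf genes, which bind CtBP or acetyltransferases in groups 1 and 2 or stand outside the groups, 8 had a peak and 6 an upper-quartile peak, beside 55.4% and 19.2% of all coding genes. Klf8 and Klf17 had none. Their highest scores were 672.50 for Klf2, 649.83 for Klf3 and 468.41 for Klf12, and the lowest was 103.47 for Klf6. The median of the highest scores was 451.13 over the 8 genes with a peak, against 608.79 for the 7 genes. Their 10 genes held 16 peaks, with Klf4 at 5 and Klf12 at 4. Of the 9 Sp genes, 8 had a peak and 6 an upper-quartile peak, beside the same shares. Sp7 had none, and Sp4 (1116.63), Sp5 (736.70) and Sp3 (681.65) were highest, with a median of 613.27. Only Klf13 among the 26 Klf and Sp genes exceeded Sp4. No test of these differences was made.

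Genes of the Sin3 complex, the partner of group 3 proteins, were also widely linked. Of 18 genes, 17 had a peak, 14 an above-median peak and 10 an upper-quartile peak, beside the same backgrounds of 55.4%, 35.4% and 19.2%. Their median highest score was 514.51. The highest were Ing1 (1030.24) and Ing2 (949.91), whose products read histone H3 methylated at lysine 4, the complex subunit gene Fam60a (843.44) and the scaffold gene Sin3a (765.27). The paralogue Sin3b had 289.71. Of the catalytic subunits, Hdac2 had 626.66 and Hdac1 had 238.24. Sap18 had no linked peak.

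A list of 16 hormone receptor, TGF-beta and clock genes was taken from pathways that some of these Klf factors are known to respond to or act on. Whether each listed gene is related to a Klf factor was not examined. Of the 16, 15 had a peak and 12 an upper-quartile peak, beside 55.4% and 19.2% of all coding genes. The median highest score was 539.82. The highest were the clock gene Clock (808.47), the TGF-beta effector gene Smad3 (706.41), the inhibitory Smad7 (697.62, with 6 peaks) and the receptor gene Tgfbr1 (662.00). Among the receptors for the hormones that induce Klf9, the glucocorticoid receptor gene Nr3c1 had 549.82, and the thyroid hormone receptor genes Thrb and Thra had 525.48 and 303.13. Of the remaining clock genes, Arntl had 528.06, Per2 423.55, Dbp 150.58 and Nr1d1 109.28, and Per1 had no linked peak.

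**Figure D4:**
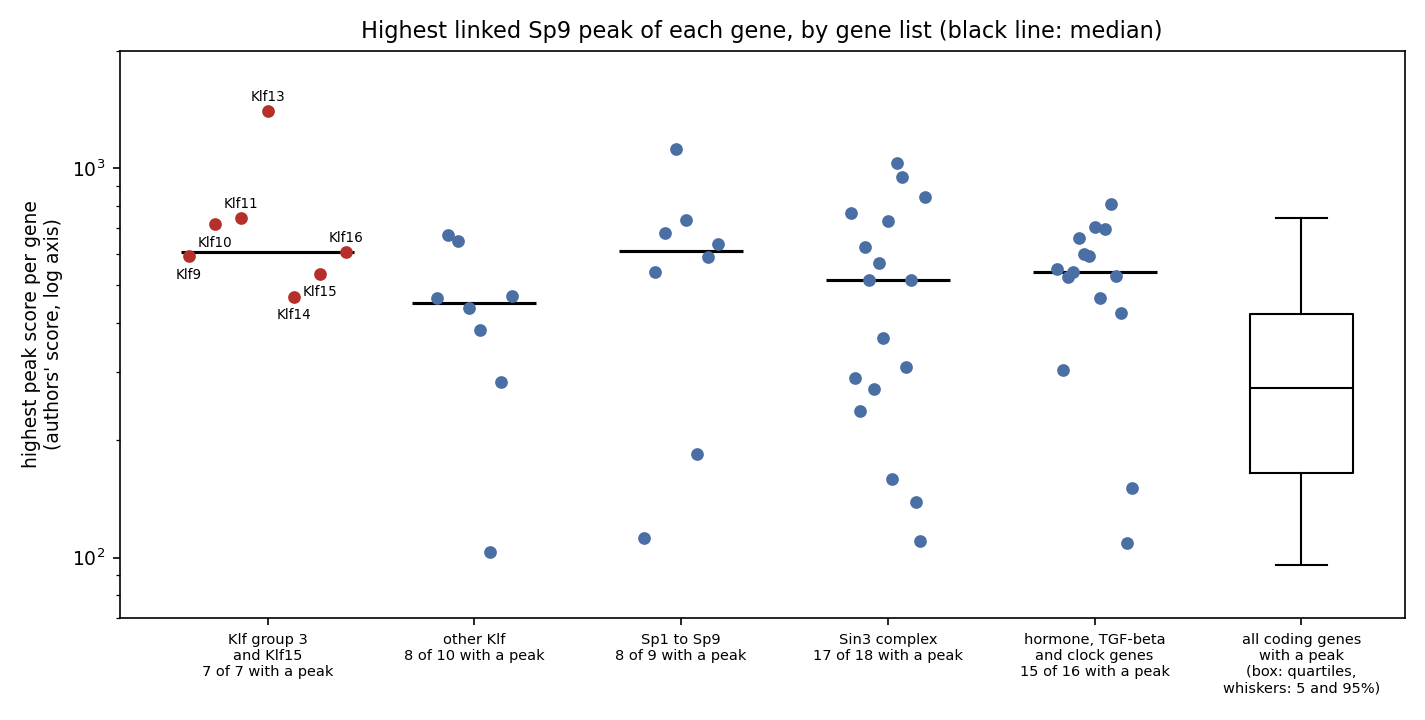
Points give the highest linked peak of each gene (authors' score, log axis) in 5 lists, black lines give each list's median, and the box at the right gives the quartiles of all 12136 coding genes with a peak, with whiskers at 5 and 95%. All 7 red points lie above the box's upper edge. Each of the other lists, which hold 9 to 18 genes, also has at least 1 gene below its lower edge. The median of the Sp genes (613.27) is no lower than that of the 7 genes (608.79).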

How the data were processed

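Sp9-bound DNA and input DNA of neonatal mouse olfactory bulb were sequenced as paired ends of 150 bases after shearing to 200 to 1000 bp, per the labels' protocols. Per the submitters' processing notes, which state no roles or settings, the tools and build were Bowtie2 2.2.4, MACS 1.4.2 and mm9. The deposited file is 1 list of shared peaks. The authors' score and the deposited positions are 1 value per peak. How peaks were called shared, the formula of the score, the gene annotation and whether starts count from 0 or 1 are not stated by any source at hand. Width is end minus start. The depth of each library is unknown.

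Names on peaks were looked up in RefSeq's mouse gene table (GRCm38.p6) by symbol, then by a synonym held by 1 gene; 13333 of 13383 names matched. Positions in that table served only to order genes, and none is compared with a peak. Promoter sequences came from RefSeq in the same build. Counts and percentiles were computed with pandas 2.3.3 and numpy 2.4.6, and the counting steps were tested on simulated data. The members and lists were chosen with earlier results of these data known. The genes named are the 7 genes, the 3 highest other Klf and Sp genes, the 4 highest of the Sin3 and the hormone, TGF-beta and clock lists, genes without a peak, and all names within 100 kb. Klf6, Sin3b, Hdac1, Hdac2, Klf4, Nr3c1, Thra, Thrb, Arntl, Per2, Dbp, Nr1d1 and genes flanking in table order were added after their values were seen. The protein comparison planned was not made, because no protein sequence was used here. One neighbouring peak is not reported here.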

Additional observations from a re-analysis of the deposited data

How the results depend on the processing

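Under every alternative run, all 7 genes kept a linked peak: above-median peaks only, upper-quartile peaks only, peaks at least as wide as the median, and names matched through synonyms. These outcomes followed from the results above and are no separate check. Each gene had an upper-quartile peak, all 9 peaks were wider than the median, and synonyms can only add peaks. The 9 peaks became 8 with above-median or upper-quartile peaks, 8 when peaks under 1 kb apart were joined (Klf10), 7 under 10 kb (Klf9 too), and 8 without Klf15. Counting every peak within 100 kb, whatever its name (chosen after seeing the data), gave 38 with the 9 included, and 22 of the others lay around Klf16. Leaving out unplaced sequences, ribosomal RNA names and runs of at least 5 peaks under 5 kb apart (this definition of a run was chosen after seeing the data; 19481 peaks left) changed the coding genes with a peak to 54.8% and moved the percentile of Klf13 to 99.8%. Taken over the highest peak of each coding gene, percentiles were 89.3% for Klf9, 94.1% for Klf10, 94.9% for Klf11, 80.0% for Klf14, 85.8% for Klf15 and 90.1% for Klf16. Taken over peaks of similar width (chosen after seeing the data), they were 75.5% for Klf9, 83.2% for Klf10, 94.7% for Klf11, 83.2% for Klf13, 55.9% for Klf14, 59.6% for Klf15 and 49.8% for Klf16; wider peaks score higher in this list. No paired analysis was possible because the list holds no value per library. For the same reason leaving out a library and another overlap of peaks were not run. The unknown depth limits each statement that a gene has no peak.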
